A study of Mus musculus with 6 samples.

Results

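Subunits of the transient outward and ultrarapid potassium currents were examined in the left ventricular apex of female mice with and without an induced deletion of Paxip1, the gene of the nuclear protein PTIP. The set held 9 genes, which 21 of the 45037 tested probe sets represent, and the whole table names 18193 genes. A probe set was taken for a gene where the platform annotation tied it to that gene alone. The genes were chosen by their channel role, with the knockout and control values of these same arrays already known, so the group values of these genes are a description. Which of them passed in the fit across all probe sets is counted only as part of that description, no p value is printed for them, and nothing is inferred from how many differed.

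The 3 knockout mice had a floxed and a null Paxip1 allele and a transgene in which the cardiac alpha myosin heavy chain promoter drives Cre recombinase fused to a modified estrogen receptor. The 3 controls kept a wild-type allele beside the floxed one, and no Cre transgene is named for them, so induced loss of PTIP, the null allele and the transgene cannot be told apart. Animals of both groups were littermates of 8 weeks on a mixed C57B6 and B6129 background, and all received tamoxifen at 20 mg/kg. Hearts were taken 5 days after tamoxifen according to one label, while another describes treatment over 5 days. Each mouse gave 1 array of deposited log2 RMA values, so a difference of -1 is a 2-fold lower signal. The transgene acts in cardiomyocytes, and the apex also holds cells that keep the floxed allele. In bulk tissue, fewer cells of a type and less RNA per cell cannot be told apart.

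The arrays were alike, with correlations of 0.989 to 0.995, and control 1 lay farthest out on the first principal component. The excess of the 3' over the 5' actin control probe set, which grows with RNA degradation, was 1.45 to 1.64 in the knockouts and 1.17 to 1.85 in the controls, with the highest value in control 1. Paxip1 read lower in every knockout than in every control on all 4 of its probe sets, with differences of -1.83 to -0.95, and 3 of the 4 passed in limma. With any single mouse left out, 0 of the 4 passed in limma, with all 4 at an unadjusted p under 0.05. Markers of ventricular cardiomyocytes averaged 13.31 to 13.37 in the knockouts and 13.36 to 13.39 in the controls, near the top of the scale. The atrial list averaged 7.16 to 7.29 in the knockouts and 6.86 to 7.73 in the controls, highest in control 1. The macrophage list averaged 6.90 to 7.24 in the knockouts and 7.30 to 7.48 in the controls. In it 3 of 6 genes read lower in every knockout than in every control, as did 1196 of all 18193 genes. The part of this list in the values below was not tested. The fibroblast, endothelial, smooth muscle, neuronal, conduction and skeletal muscle lists overlapped between the groups. With limma 0 of 57 measured marker genes passed, where 0.286% of all genes did. At an unadjusted p under 0.05 there were 6 of 57, against 9.27% of all genes.

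Transient outward current is the early outward flow of potassium that starts repolarisation of the cardiac action potential, and in mouse ventricle it is large and shapes a short action potential. Its fast component runs through channels of the Kcnd family, whose surface expression and gating depend on the calcium-binding protein encoded by Kcnip2 and on dipeptidyl peptidase-like proteins such as that of Dpp6. Its slow component runs through the channel encoded by Kcna4. Kcna5 encodes the pore of a rapidly activating delayed rectifier, called the ultrarapid current in human atrium, and Kcnab1 and Kcnab2 encode cytoplasmic beta subunits that join channels of the Kcna family. Kcnv2 encodes a silent subunit that forms no channel of its own and modifies other voltage-gated channels.

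Signal for 3 of the 9 genes was more than 2-fold lower in the knockout ventricles on their brightest probe set. These were Kcnip2, Kcnd3 and Kcna4, an accessory subunit and both kinds of transient outward pore. Kcnd2 was lower by a smaller amount, Kcnv2 was higher, and Kcna5, Kcnab1, Kcnab2 and Dpp6 overlapped between the groups on every probe set. In the limma fit across all probe sets, 1 of the 21 passed at an adjusted p under 0.05, the brightest probe set of Kcnd3, where 0.191% of all probe sets passed. Of the 21, 8 read lower in every knockout than in every control (6.73% of all probe sets), 1 read higher in every knockout (7.64% of all), and 12 overlapped. The median difference of the 21 was -0.25, against 0.01 over all probe sets. Since the genes were picked with this contrast in view, these shares only describe the set.

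**Figure D1:**
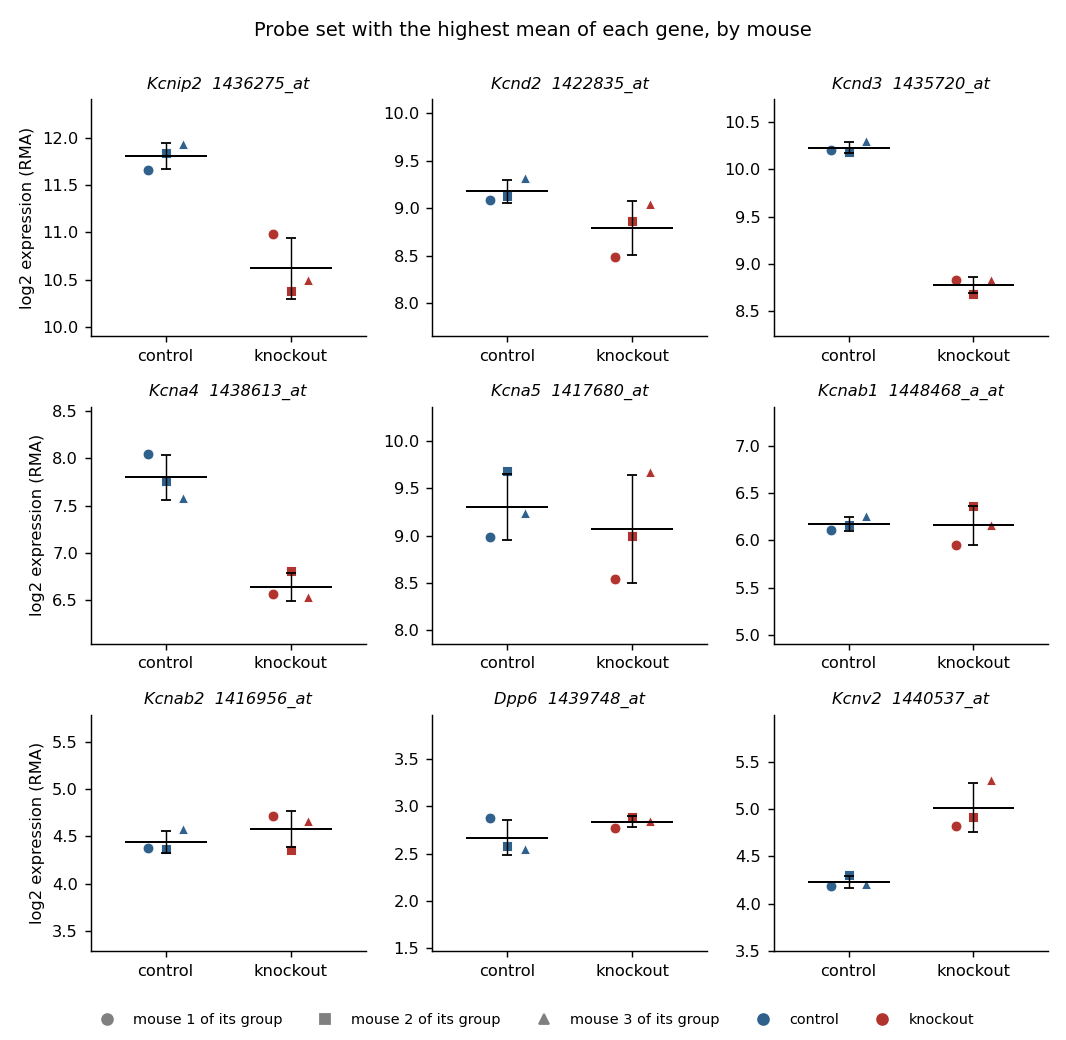
Log2 expression (vertical axis, each panel spanning the same range of 2.5 log2 units) of the brightest probe set of each gene in the 3 control and 3 knockout mice, with the group mean as a line and the SD (n = 3) as a bar. The groups lie apart for Kcnip2, Kcnd2, Kcnd3, Kcna4 and Kcnv2 and overlap for the other 4 genes.

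Since Kcnip2, Kcnd3 and Kcna4 were lower together, the bases before their annotated starts are shown, with Kcna5 as a gene whose groups overlapped. Each stretch is the 250 bases before the start of the gene in RefSeq on GRCm38.p6, read 5′ to 3′ on the gene's strand. Kcnip2 is at chr19:45816064-45816313 on the minus strand, Kcnd3 at chr3:105451640-105451889 on the plus strand, Kcna4 at chr2:107290339-107290588 on the plus strand and Kcna5 at chr6:126535556-126535805 on the minus strand. Capitals mark CACCC on either strand (GGGTG when read on the other strand), the core of sites bound by Krüppel-like factors, a family that includes Klf15, known as an activator of Kcnip2.
Kcnip2: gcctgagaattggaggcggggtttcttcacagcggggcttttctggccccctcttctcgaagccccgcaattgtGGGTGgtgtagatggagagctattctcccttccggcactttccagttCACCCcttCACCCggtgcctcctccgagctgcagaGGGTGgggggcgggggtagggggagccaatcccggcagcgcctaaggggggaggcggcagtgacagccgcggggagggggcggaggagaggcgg
Kcnd3: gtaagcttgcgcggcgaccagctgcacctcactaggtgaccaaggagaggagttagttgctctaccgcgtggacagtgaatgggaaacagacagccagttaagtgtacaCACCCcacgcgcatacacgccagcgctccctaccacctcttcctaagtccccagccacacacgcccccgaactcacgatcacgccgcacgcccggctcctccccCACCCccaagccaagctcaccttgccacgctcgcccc
Kcna4: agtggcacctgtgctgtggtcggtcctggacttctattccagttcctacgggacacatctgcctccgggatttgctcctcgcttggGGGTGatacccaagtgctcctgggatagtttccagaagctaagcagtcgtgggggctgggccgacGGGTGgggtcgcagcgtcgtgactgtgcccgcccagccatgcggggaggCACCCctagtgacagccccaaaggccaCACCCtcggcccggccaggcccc
Kcna5: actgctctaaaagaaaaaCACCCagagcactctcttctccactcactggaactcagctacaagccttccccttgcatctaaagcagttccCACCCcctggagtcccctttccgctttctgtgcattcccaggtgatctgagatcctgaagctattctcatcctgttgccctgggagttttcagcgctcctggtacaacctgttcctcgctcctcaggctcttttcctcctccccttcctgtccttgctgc

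CACCC occurred 4 times before Kcnip2, 4 times before Kcna4, 2 times before Kcnd3 and 2 times before Kcna5. At least 1 match was present in 52.0% of the 32851 promoter windows of this length and at least 4 in 2.14%. Kcnd2 had 1 match. The stretches of Kcnip2, Kcnd3 and Kcna4 were rich in G and C (66.8%, 62.8% and 65.2%, against a median of 52.4% over all windows). How often CACCC occurs in windows equally rich in G and C was not examined, so 2.14% does not account for this richness. Their ratio of observed to expected CG dinucleotides was 0.557, 0.809 and 0.527, above the median of 0.374. Kcnd2, whose difference was smaller, had a ratio of 0.750, and Kcna5 had 0.199. Ratios above that median were not particular to the genes that read lower. Kcnab1, Kcnab2 and Dpp6, whose groups overlapped, had 3 starts each, and their highest ratios were 0.478, 0.868 and 0.435, that of Kcnab2 being the highest of all 14 windows. That Kcnab2 window also held 2 CACCC matches. Windows were found for 8 of the 9 genes. A match of letters is a description and not evidence of a bound site.

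Kcnd3 encodes a pore of the fast transient outward current. Its brightest probe set, 1435720_at, read 8.83, 8.68 and 8.83 in knockouts 1 to 3 and 10.21, 10.18 and 10.30 in controls 1 to 3. Mice of a group differed little on this probe set, and a gap of 1.35 separated the highest knockout from the lowest control. Kcnd3 fell by 1.45 on the log2 scale (SE 0.11), from 10.23 ± 0.06 to 8.78 ± 0.09 (SD, n = 3 each), a 2.73-fold lower signal. The call was kept without control 1 or control 3 and was lost without any of the other 4 mice, while the difference itself stayed between -1.47 and -1.40.

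Signal was dim on the remaining 3 Kcnd3 probe sets, with means of 3.93, 3.65 and 2.38 against a median of 5.19 over all probe sets. On 1442555_at the knockouts read 3.66, 3.71 and 3.50 and the controls 4.10, 4.21 and 4.41, a difference of -0.62 (SE 0.12). On 1426070_a_at the knockouts read 3.55, 3.29 and 3.25 and the controls 4.09, 4.04 and 3.65, a difference of -0.56 (SE 0.16). Both separated the groups, the second by a gap of 0.10. On 1447513_at the groups overlapped, with a difference of -0.25 (SE 0.17). All 4 probe sets of Kcnd3 thus had the same sign, with the largest difference on the brightest. RMA can compress differences at the low end of the scale, and its part in these values was not tested. The mean of all 4 probe sets differed by -0.72.

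Kcnip2 encodes the accessory subunit that binds Kcnd channels and brings them to the cell surface. Its brightest probe set, 1436275_at, read 10.98, 10.38 and 10.50 in the knockouts and 11.65, 11.84 and 11.93 in the controls. Knockout 1 was the highest of its group and control 1 the lowest of its own, and they were still 0.67 apart. The means were 10.62 ± 0.32 and 11.81 ± 0.14 (SD, n = 3 each), a difference of -1.19 (SE 0.18) and a 2.28-fold lower signal.

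A second Kcnip2 probe set, 1425870_a_at, showed a wider gap and a different spread. It read 6.32, 6.42 and 6.46 in the knockouts and 7.35, 8.41 and 8.07 in the controls, so the knockouts lay close together and control 1 lay below the other controls. The means were 6.40 ± 0.07 and 7.94 ± 0.54 (SD, n = 3 each), a difference of -1.54 (SE 0.25), which was -1.84 without control 1. The third probe set, 1421783_a_at, had a mean of 4.28 and read 4.17, 4.33 and 4.42 in the knockouts and 4.16, 4.47 and 4.14 in the controls. It overlapped completely, with a difference of 0.05 (SE 0.14), so the probe sets of Kcnip2 did not all move alike. The annotation used here does not say which transcripts each detects. The mean of the 3 probe sets differed by -0.89.

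**Figure D2:**
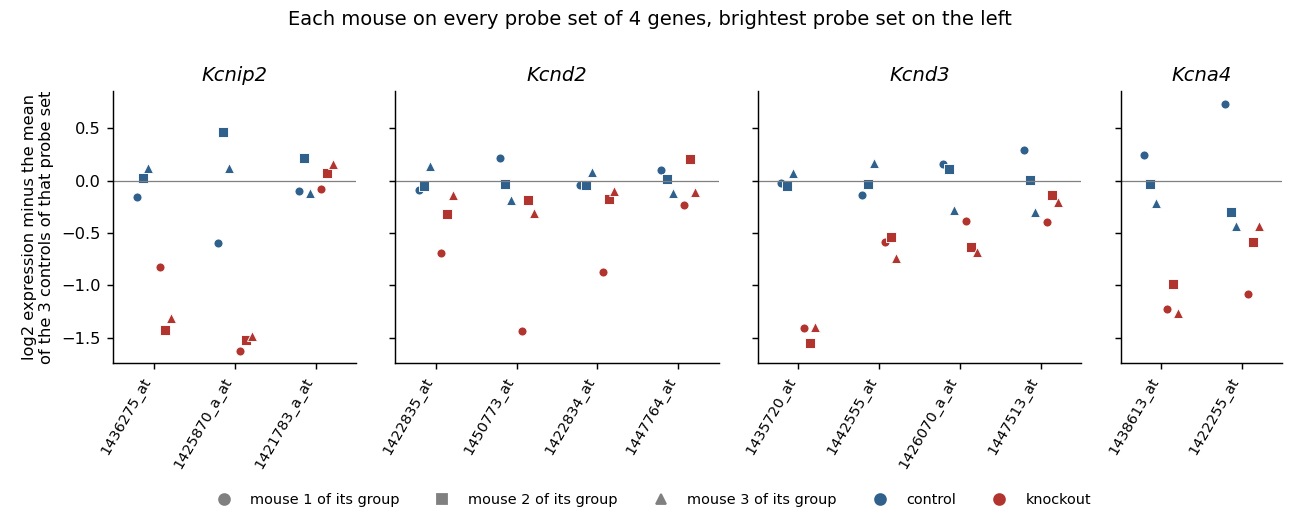
Log2 expression of every mouse on each probe set of Kcnip2, Kcnd2, Kcnd3 and Kcna4, as the distance from the mean of the 3 controls on that probe set (vertical axis), with symbols for mouse 1, 2 and 3 of each group. On Kcnip2 1425870_a_at and Kcnd3 1435720_at the knockouts lie together below all controls, while knockout 1 lies below the other knockouts on the 3 brighter Kcnd2 probe sets.

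Kcna4 encodes the pore of the slow transient outward current. Its brighter probe set, 1438613_at, read 6.57, 6.82 and 6.54 in the knockouts and 8.05, 7.77 and 7.58 in the controls, with a gap of 0.77 between the groups. The means were 6.64 ± 0.15 and 7.80 ± 0.24 (SD, n = 3 each), a difference of -1.16 (SE 0.15) and a 2.23-fold lower signal. The dimmer probe set, 1422255_at, read 3.68, 4.18 and 4.33 in the knockouts and 5.50, 4.46 and 4.33 in the controls. Control 1 was high and the other controls lay next to the knockouts, so the difference of -0.70 (SE 0.32) became -0.33 without control 1. Control 1 also had the highest actin 3' excess and the highest atrial marker average, and the part of either in this value was not tested.

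Kcnd2 also encodes a pore of the fast current, and it differed less than Kcnd3. On 1422835_at the knockouts read 8.48, 8.86 and 9.04 and the controls 9.09, 9.13 and 9.32, a difference of -0.38 (SE 0.16). The groups did not overlap, but the gap was 0.05, less than the SD within either group (0.28 and 0.12). On 1422834_at the knockouts read 6.16, 6.86 and 6.93 and the controls 6.99, 6.99 and 7.11, a difference of -0.38 (SE 0.21) with a gap of 0.06. On 1450773_at the knockouts read 7.86, 9.12 and 8.99 and the controls 9.51, 9.27 and 9.11, which overlapped, with a difference of -0.64 (SE 0.32). Knockout 1 was the lowest mouse on each of these 3 probe sets. Without it the differences were -0.23, -0.14 and -0.24, in the order given here. The fourth, 1447764_at, was dim and differed by -0.05 (SE 0.14). Whether the difference of Kcnd2 is smaller than that of Kcnd3 was not tested, since both were chosen on this contrast.

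Kcna5, the pore of the ultrarapid current, varied more between mice than between groups. Its only probe set, 1417680_at, read 8.54, 8.99 and 9.67 in the knockouts and 8.99, 9.68 and 9.24 in the controls. Knockout 1 was again the lowest mouse and knockout 3 lay beside the highest control. The means were 9.07 ± 0.57 and 9.30 ± 0.35 (SD, n = 3 each), and the difference of -0.24 (SE 0.30) turned to 0.03 without knockout 1.

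Kcnv2, the silent subunit, was the member with the largest higher value. Its single probe set, 1440537_at, read 4.82, 4.91 and 5.31 in the knockouts and 4.19, 4.30 and 4.21 in the controls. The controls lay within a narrow range and every knockout was above them by at least 0.53. The means were 5.01 ± 0.26 and 4.23 ± 0.06 (SD, n = 3 each), a difference of 0.78 (SE 0.15) and a 1.72-fold higher signal, which did not pass over all probe sets. Its mean of 4.62 lay below the median of all probe sets. RMA can understate changes at low signals, and whether it did so here was not tested.

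The beta subunit genes overlapped on all of their probe sets. Kcnab1 1448468_a_at read 5.95, 6.36 and 6.16 in the knockouts and 6.11, 6.16 and 6.25 in the controls, a difference of -0.02 (SE 0.13), and the dim 1454043_a_at differed by 0.09 (SE 0.15). Kcnab2 1416956_at read 4.71, 4.36 and 4.66 in the knockouts and 4.38, 4.37 and 4.58 in the controls, a difference of 0.14 (SE 0.14), and 1425885_a_at differed by 0.20 (SE 0.14). Both Kcnab2 probe sets were dim, with means of 4.51 and 3.06 against the median of 5.19 over all probe sets. Dpp6, whose product speeds the gating of Kcnd channels, gave signals near the low end of the scale in all 6 mice. Its probe sets 1439748_at and 1451394_at read 2.55 to 2.89 and 2.16 to 2.56 over all mice and differed by 0.17 (SE 0.13) and -0.15 (SE 0.12), with opposite signs. At such signals a change of Dpp6 would be hard to see.

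**Figure D3:**
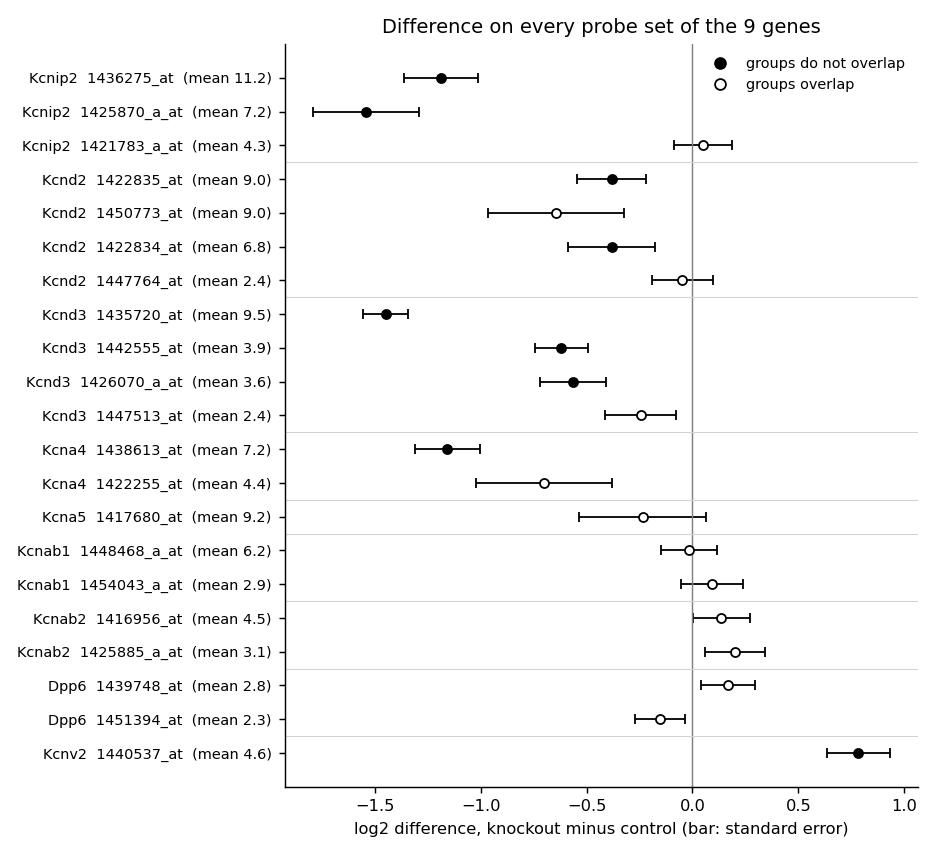
Log2 difference between knockout and control means (horizontal axis) with its standard error for all 21 probe sets, each labelled with its mean over the 6 arrays, where filled points mark probe sets whose groups do not overlap. Filled points lie below 0 for Kcnip2, Kcnd2, Kcnd3 and Kcna4 and above 0 for Kcnv2, and the dimmest probe sets of Kcnip2, Kcnd2 and Kcnd3 lie nearest to 0 within their genes.

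Each mouse was left out in turn. On the brightest probe sets, the difference stayed between -1.37 and -1.07 for Kcnip2, between -1.27 and -1.03 for Kcna4 and between 0.64 and 0.88 for Kcnv2. For Kcnd2 it ranged from -0.50 to -0.23, with the value nearest 0 when knockout 1 was left out. For Kcna5 the range of -0.54 to 0.03 crossed 0, as did that of -0.12 to 0.09 for Kcnab1. The 9 probe sets whose groups did not overlap kept their sign in all 11 alternatives in which a difference was recomputed, in both other scalings as well. Among these 11, the replicate block cannot move a difference in this balanced design.

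**Figure D4:**
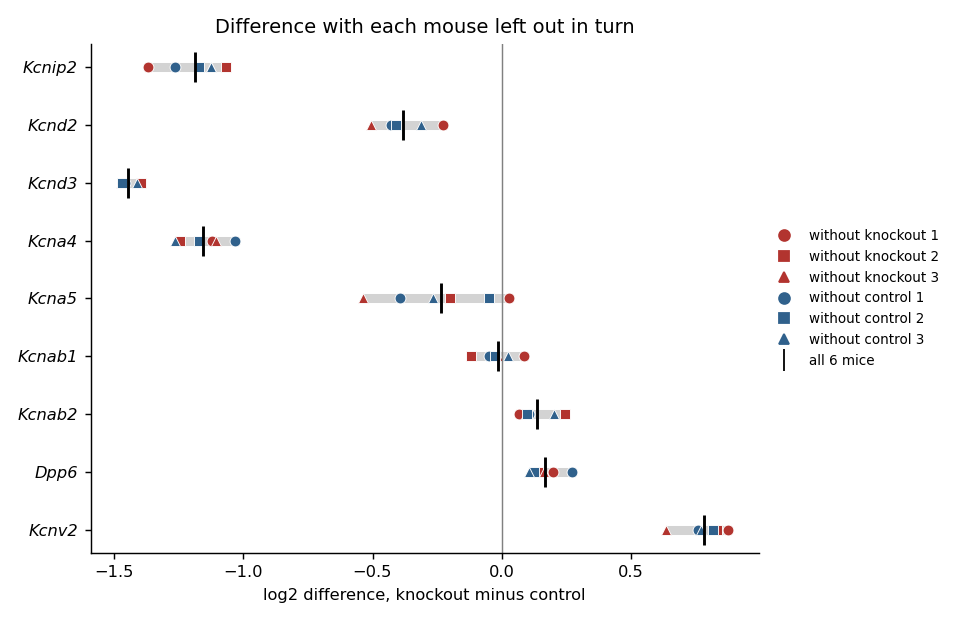
Log2 difference between knockout and control (horizontal axis) of the brightest probe set of each gene with all 6 mice (black bar) and with 1 mouse left out (symbols, coloured by the group of the mouse left out), over a grey band from the lowest to the highest value. The bands of Kcnip2, Kcnd3, Kcna4 and Kcnv2 stay more than 0.6 away from 0, while those of Kcna5 and Kcnab1 reach across it.

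Across the 6 arrays, the brightest probe sets of Kcnip2 and Kcnd3 had a Pearson correlation of 0.96, Kcnd3 and Kcna4 one of 0.94, and Kcnip2 and Kcna4 one of 0.86. Kcnv2 ran opposite to all 3, with correlations of -0.93 with Kcnip2, -0.92 with Kcnd3 and -0.93 with Kcna4. Kcna5 had correlations of 0.15 with Kcnip2 and 0.70 with Kcnd2. These values are over 6 arrays in 2 groups, so any genes that differ between the groups correlate, and they are a description. Among 11115 brighter genes outside the set, the profiles most like Kcnip2 were those of Ntsr2, a neurotensin receptor gene (r = 0.998, difference -1.72), Ddhd1, a phospholipase gene (r = 0.993, difference -0.19), Metrnl, which encodes a secreted protein (r = 0.990, difference -0.43), Eepd1 (r = 0.989, difference -0.47) and C5ar1, a complement receptor gene (r = 0.988, difference -0.50). The profiles most like Kcnd3 were those of Entpd6 (r = 0.995, difference -1.08), Slc16a4, of the monocarboxylate transporter family (r = 0.994, difference -0.43), Alox5, a lipoxygenase gene (r = 0.994, difference -2.03), Tnnt1, the slow skeletal troponin T gene (r = 0.994, difference -1.01), and Polr1e, of RNA polymerase I (r = 0.993, difference -1.46). Correlation sets aside the size of a change. Genes with Gm and Rik names were left out of the 11115, of which 45 for Kcnip2 and 90 for Kcnd3 had r above 0.95.

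Other genes of these currents and of ventricular repolarisation were taken from 4 lists, by their brightest probe set. With limma, 0 of 52 measured genes passed over all probe sets, where 0.286% of all genes did. At an unadjusted p under 0.05 there were 12 of 52, of which 4 were lower and 8 higher, against 9.27% of all genes. Their median difference was 0.05, against 0.02 over all genes. Of all 122 probe sets of these genes, 1 passed, a second probe set of Kcne1.

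Among 15 measured genes of other Kcnd, Kcnip, Kcna and accessory subunits, none passed. Kcna7, a pore of the Kcna family, read 5.19, 4.87 and 5.32 in the knockouts and 5.44, 5.97 and 5.91 in the controls, a difference of -0.64 (SE 0.18, limma adjusted p = 0.337). Kcnip3, a relative of Kcnip2, read 4.21, 4.20 and 4.44 against 3.98, 3.94 and 3.76, a difference of 0.39 (SE 0.12, limma adjusted p = 0.393). Kcna1, another pore of the Kcna family, read 7.07, 7.64 and 7.10 against 6.64, 6.77 and 6.80, a difference of 0.54 (SE 0.17, limma adjusted p = 0.402). Kcne4, an inhibitory beta subunit, differed by -0.24 (limma adjusted p = 0.584), with a gap of 0.10 between the groups. Of the 15 genes, Kcna7 and Kcne4 read lower and Kcnip3 and Kcna1 higher in every knockout than in every control. Over all 18193 genes, 1196 read lower and 1718 higher in this way. Kcnd1, the remaining Kcnd pore gene, differed by 0.03 (SE 0.16), and Kcnip1 and Kcnip4 by 0.09 and -0.08.

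Among 13 measured genes of other repolarising channels, Kcne1, the partner of the slow delayed rectifier pore, was lower. Its brightest probe set, 1441035_at, read 6.47, 6.71 and 7.18 in the knockouts and 7.98, 7.87 and 7.94 in the controls, a difference of -1.14 (SE 0.18, limma adjusted p = 0.0881). Its other probe set, 1420672_at, read 5.43, 5.82 and 6.12 against 8.65, 8.39 and 8.63 and passed, with a difference of -2.77 (SE 0.19, limma adjusted p = 0.00996). Kcnj5, a subunit of the acetylcholine-activated channel, differed by -0.54 on its brightest probe set (limma adjusted p = 0.214) and by 0.24 on a dim one. Kcnk3, a background channel, and Kcnh2, the pore of the rapid delayed rectifier, differed by 0.28 and 0.43 (limma adjusted p = 0.458 and 0.524).

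None of 9 measured scaffold and kinase genes passed. Akap6, a kinase anchoring protein, differed by 0.35, Camk2d, the main cardiac calmodulin kinase, by 0.24, Ank2, an ankyrin, by -0.16 and Prkce by 0.13, with limma adjusted p from 0.522 to 0.852. Other probe sets of Camk2d differed in both directions, from -0.52 to 0.50.

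Of 15 measured transcriptional regulators tied to these currents, none passed. Tbx5, a cardiac T-box factor, read 10.24, 10.26 and 10.15 in the knockouts and 9.82, 9.66 and 9.62 in the controls, a difference of 0.52 (SE 0.11, limma adjusted p = 0.188). When the probe sets of a gene were averaged, Tbx5 rose by 0.70 (limma adjusted p = 0.0366) and Kcne1 fell by 1.95 (limma adjusted p = 0.00682). Klf15, known as an activator of Kcnip2, read 10.59, 10.44 and 10.60 against 10.12, 10.24 and 10.40, a difference of 0.29 (SE 0.12, limma adjusted p = 0.531). Its part in the Kcnip2 values was not tested. Nkx2-5 differed by 0.43 and Irx3 by -0.27 (limma adjusted p = 0.459 and 0.542).

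**Figure D5:**
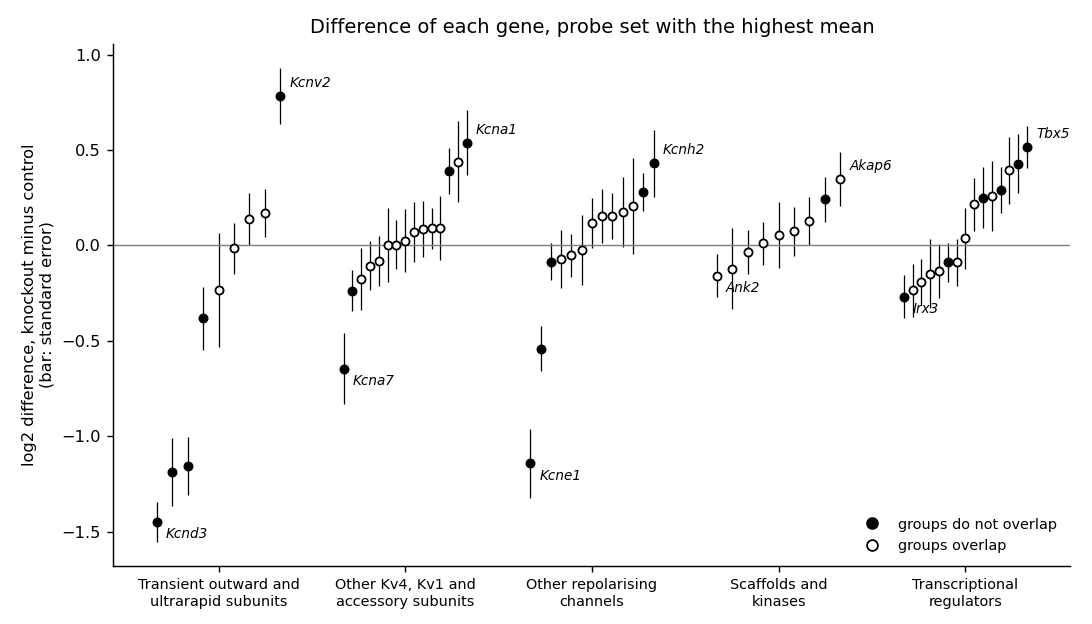
Log2 difference between knockout and control (vertical axis) with its standard error for the brightest probe set of each of the 9 subunit genes and of 52 genes in 4 related lists, where filled points mark genes whose groups do not overlap. Differences beyond 1 in size are those of Kcnd3, Kcnip2 and Kcna4 in the first column and of Kcne1 among the other repolarising channels.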

How the data were processed

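Each of 6 mice gave 1 Affymetrix array. The authors deposited log2 expression values made with RMA, per the submitters' processing notes, with a version not given in the sources used here. Values from 1.36 to 14.3 are taken as log2 from their range. Of 45101 probe sets, 64 controls were left out. Names came from the platform annotation, which ties 34945 tested probe sets to 1 gene, 932 to several and lists none for 9160. Symbols were updated through RefSeq (GRCm38.p6), where 34741 identifiers matched. A gene was represented by its probe set with the highest mean. The fit used limma 3.58.1 (R 4.3.3), as knockout minus control, with Benjamini-Hochberg adjustment over 45037 probe sets and no filter. The median standard error was 0.147, and 3 mice a group limit the precision. On data drawn with known changes, limma recovered 99 of 100 probe sets changed by 2 and 69 of 100 changed by 1, while 11 unchanged probe sets passed. The noise drawn was independent and normal, with the moderated spreads of the fit itself. These counts therefore do not give the recovery on real arrays, which may be lower.

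The members and lists were chosen with earlier results of these data known. Genes named outside the set were the 4 with the smallest p of each list and the 5 profiles most like Kcnip2 and Kcnd3, with the Kcnd and Kcnip relatives, the second Kcne1 and Kcnj5 probe sets, Tbx5 by mean, the genes by several probe sets in the closing section and the 6 markers with an unadjusted p under 0.05 named after their values were seen. Lists covered 56 related genes (52 measured) and 60 cell type markers (57 measured), and the others are not analysed here. Alternatives were 2 filters, 2 scalings, array weights, a variance trend, a robust prior, the replicate block, each mouse left out, the 4 arrays whose description numbers begin alike (knockout 3 and the controls), no moderation, another threshold and the mean of probe sets.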

Additional observations from a re-analysis of the deposited data

How the results depend on the processing

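The 1 member probe set that passed became 4 with a variance trend, 4 with array weights and 4 at an adjusted p under 0.1 (Kcnd3, Kcna4 and both brighter Kcnip2 probe sets each time). It became 2 with either filter on dim probe sets (Kcnd3 and Kcna4). The filters kept 9 and 10 of the 21 member probe sets. Of all probe sets kept, 104 of 22518 and 116 of 23729 passed. The member count was 2 with each array centred on its median (Kcnd3 and Kcnip2) and 0 to 2 with 1 mouse left out. It was 0 without moderation, 0 with the replicate block and 0 on knockout 3 and the controls, the 4 arrays whose description numbers begin alike, where the lone knockout is assumed to vary like the controls. Over all probe sets, 86 passed (56 lower), and 90 (47 lower) after centring. That count was 185 with a variance trend, 51 with a robust prior, 204 with array weights, 196 at an adjusted p under 0.1, 1 without moderation, 0 with the block and 0 on those 4 arrays, and 0 to 21 with 1 mouse left out. In limma the counts at an unadjusted p under 0.05 on all probe sets were 3392 with the block, 2348 on those 4 arrays and 3790 and 3532 where leaving out knockout 1 or control 2 gave 0. The 3 passing Paxip1 probe sets became 0 without moderation, with the block, on those 4 arrays and with any mouse left out. Among related genes the count of 0 became 1 at an adjusted p under 0.1 (Kcne1) and 2 by mean of probe sets. No marker gene passed in any alternative. Same-numbered mice did not deviate together (correlations of -0.15, -0.08 and -0.01), so the numbers were not taken to pair mice. Of 240 member differences recomputed, 233 moved by less than the spread between mice and 7 by more. The 240 include those with the replicate block, which leaves each difference as it was. On the 4 arrays Kcna5 differed by 0.37, Kcnd2 1422835_at by -0.14 and Kcnv2 by 1.08. Dim signal limits what can be said of the 12 of the 21 probe sets whose mean lay below the median, among them all those of Dpp6, Kcnv2 and Kcnab2.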

Other observations

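Some related genes had several probe sets, which moved alike for Tbx5 but not for Kcna1 and Kcnk3. Kcna1 read higher in every knockout than in every control on its 2 brighter probe sets, by 0.54 and 0.39, while another differed by -0.15 with overlap. Tbx5 read higher in every knockout on both of its probe sets, by 0.52 on 1425695_at and 0.89 on 1425694_at. Kcnk3 differed by 0.28 on its brightest probe set and by -0.24 and -0.11 on the others. Among the macrophage markers, Mrc1 differed by -0.51 (limma adjusted p = 0.288), Adgre1 by -0.47 (limma adjusted p = 0.405) and Csf1r by -0.33 (limma adjusted p = 0.501). Nppa, an atrial marker that also rises in stressed ventricle, differed by 0.54 (limma adjusted p = 0.458), with knockouts at 12.11, 12.74 and 12.71 and controls at 11.85, 12.17 and 11.91, which overlapped. Sox10, a Schwann cell factor, differed by 0.54 (limma adjusted p = 0.441). Cntn2, a conduction system marker, differed by 0.95 (limma adjusted p = 0.549), with knockouts at 6.66, 7.99 and 8.16 and controls at 6.86, 6.16 and 6.94. By the sign of their differences, 3 of 4 measured conduction genes were lower, down to -0.47. So were 5 of 7 atrial genes and 2 of 6 neuronal and Schwann genes, and these single markers do not stand for their lists.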
